A study of Mus musculus with 2 samples.

Results

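The regions described here are 2741 windows of 2000 bp that the authors listed as bound by GPS2 at day 6 of adipogenesis but not at day 0, and that nevertheless held day 0 reads. They came from the 5000 rows that follow row 6500 of the deposited day 6 list (called the middle rows below), a stretch taken to lie near gene starts. A window was kept if it overlapped no day 0 window by 1 bp and held at least 4 day 0 reads. Of the 5000 windows in the middle rows, 2179 overlapped the day 0 list and 2821 did not, and 80 of the latter fell short of 4 day 0 reads. The 2741 windows were 13.8% of the 19794 windows of the day 6 list, and both lists together held 27446 windows. The windows were thus chosen by the reads of both libraries, through the 2 lists and the day 0 count, so their read numbers at day 0 and day 6 are given as a description, without a test.

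The assay was ChIP-seq, in which DNA bound by a protein is pulled down with an antibody and sequenced, in 3T3-L1, an established mouse preadipocyte line. The cells were induced to become adipocytes and taken at day 0 or at day 6, and the labels name no genetic change in either. Each day had 1 library (4258133 aligned reads at day 0 and 3543507 at day 6), so intervals cover counting error only and differences between cultures are not measured. The rabbit antibodies were raised against peptides from either end of GPS2, without a statement of which served which library. Without an input library in this work, reads gathered for reasons other than GPS2 cannot be told apart from GPS2 binding.

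GPS2 (G protein pathway suppressor 2) is a small subunit of a nuclear receptor corepressor complex, where it works with TBL1-family proteins and the histone deacetylase HDAC3. Such complexes keep genes under nuclear receptors silent until a signal releases them. In fat cells the nuclear receptor PPARG is the central regulator of the adipocyte programme, and the title of the series links GPS2 to its recruitment at promoters through the histone demethylase KDM4A. Windows near gene starts that enter the list only at day 6 bear on where GPS2 is newly listed and on how many reads such places held beforehand.

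Whether these windows are promoters could only be read from the order of the list, because no gene annotation of the build mm8 was used here. The order followed the place of a window and not its height. Among 3511 windows whose centres lay within 200 bp of each other in both lists, the place in the day 0 list and the place in the day 6 list had a Spearman correlation of 0.968, while the place in the day 6 list and the day 6 reads had one of -0.08 over 19794 windows. These are descriptions across windows of the same genome, which are not replicates. Within the middle rows the correlation of the places was 0.670 over 1445 such pairs, where small shifts of a centre change the order.

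Neighbouring windows gave a limited view of the scale of this order. Around windows in the middle of the stretch (the 2000 rows that follow row 8000), other day 6 windows whose centres lay 1000 to 1500 bp away fell within the middle rows in 13 of 27 cases. At 1500 to 2000 bp this was 5 of 49 cases, with median rows of 4695.5 on the lower side and 12676 on the upper side. At 2000 to 3000 bp it was 17 of 76 cases. The middle rows held 5000 of the 19794 windows of the day 6 list, so most windows lie outside them in any case. The share inside was 48.1% at 1000 to 1500 bp and 10.2% at 1500 to 2000 bp. It was 22.4% at 2000 to 3000 bp and 31.2% at 20000 to 50000 bp, so no scale is read from the neighbours beyond 2000 bp. Whether the order follows the distance to gene starts was not tested.

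Windows along the list changed in step with this order. In blocks of 500 rows, the share of windows also listed at day 0 was between 41.6% and 49% inside the middle rows. It was 20.6% in rows 4001 to 4500 and 17% in rows 13001 to 13500. Windows not listed at day 0 had a median of 11 to 12 day 0 reads inside the stretch and of 8 in each of those 2 blocks. The change lay at about rows 4501 to 5000 and 12501 to 13000, so the stretch did not end where the windows changed. Just outside its edges the values were similar: in the 100 rows before the first, 50 windows met the other conditions, with a median of 12 day 0 and 19 day 6 reads, and the first 100 rows inside held 48, with 11 and 19. At the other edge, the last 100 rows inside held 52 windows, with 12.5 and 17 reads, and the next 100 rows 51, with 13 and 18.

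**Figure D1:**
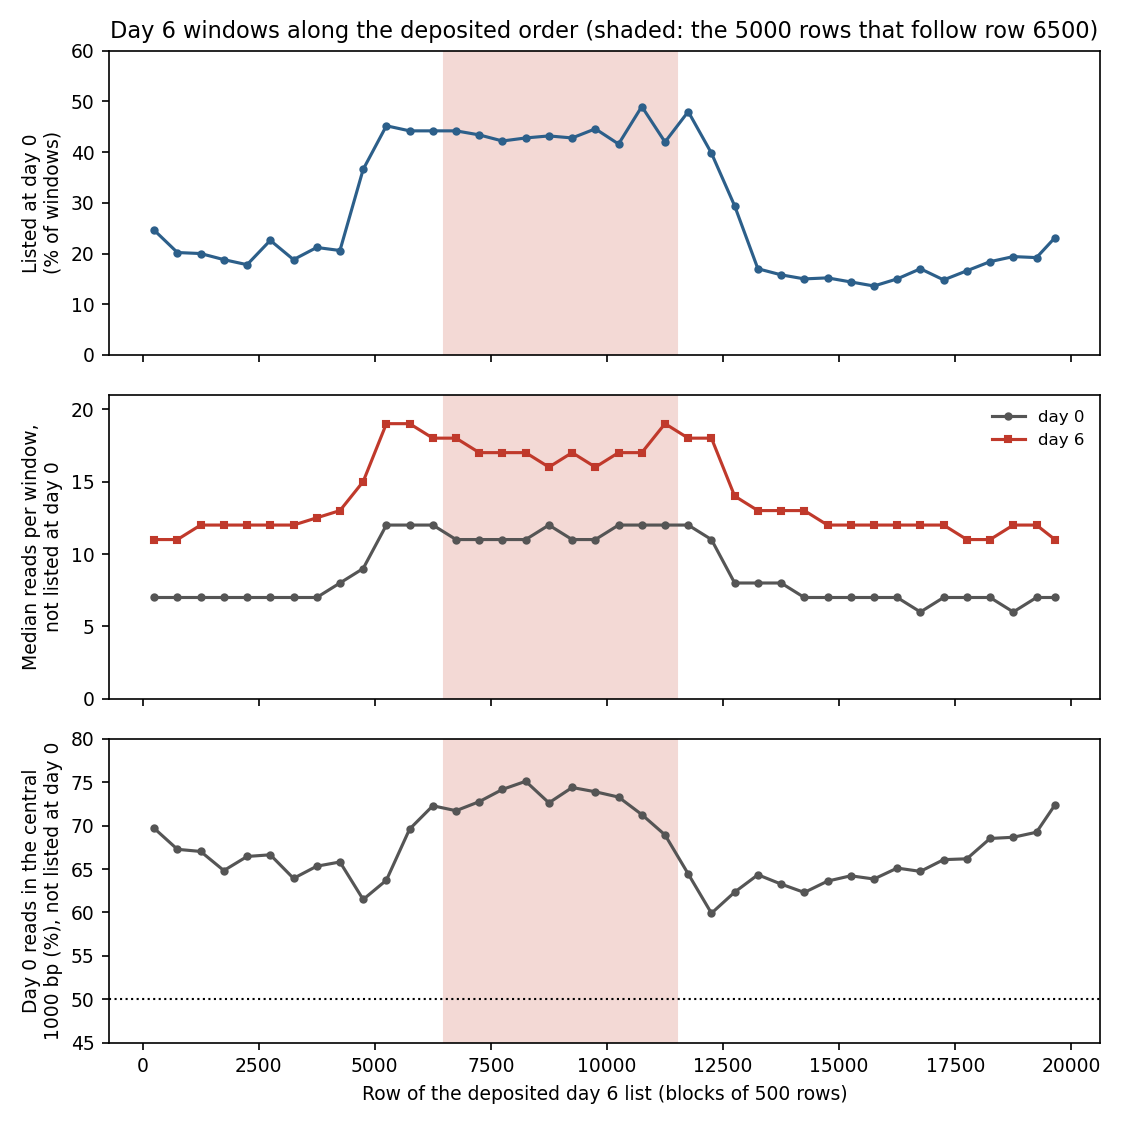
Day 6 windows in blocks of 500 rows along the deposited list: the share also listed at day 0 (top, percent), the median reads per window of those not listed at day 0 (middle, both days) and the share of their day 0 reads in the central 1000 bp (bottom, percent, dotted line at the 50% of an even spread). The shaded middle rows lie inside a plateau that begins near row 5001 for the upper 2 panels, while the central share peaks at 75.1% in rows 8001 to 8500.

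At day 0 the 2741 windows held 4 to 109 reads, with a median of 11 and 10% and 90% points of 6 and 18. At day 6 they held 6 to 148 reads, with a median of 17 and 10% and 90% points of 11 and 27. The windows of the same rows that were also listed at day 0 held a median of 20 reads at day 0 and 23 at day 6. The ranges of the groups overlapped widely at both days.

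The minimum of 4 day 0 reads was low beside the background. Of 1251761 tiles of 2 kb that lay outside all windows of both lists, 33.7% held at least 4 day 0 reads (95% interval 33.6 to 33.8), and their mean was 2.98. A count of at least 8 was found in 3.77% of the tiles, and in 11.2% of the tiles with at least 4 day 0 reads. Of the 2741 windows, 481 held 4 to 7 day 0 reads, 924 held 8 to 11, 765 held 12 to 15, 410 held 16 to 19 and 161 held 20 or more. For most of the windows, day 0 reads therefore lay above what is common in the background, and for the 481 their number did not tell them from it. The rule used this count, so the comparison is a description.

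The windows were set beside their own surroundings, which the rule did not use, although it did use the day 0 reads inside the windows. With no minimum of day 0 reads, the day 0 fold given below would be 2.90. As local background served the reads found up to 5 kb from a window's edges and outside all listed windows. At day 0 the 2741 windows together stood 2.96 times above it (2.92 to 2.998) and at day 6 5.34 times (5.27 to 5.41). The day 6 value was 3.38 without the central 200 bp and 8.97 in the central 1000 bp, against 2.53 and 4.30 at day 0. At day 0, 2202 of the 2741 windows (80.3%) had at least 2 times their local background. Over all day 6 windows this share was 61.8%, and over the 5000 middle rows it was 86.8%, both without a minimum of day 0 reads. The day 0 fold over the local background was 4.90 for the windows of the same rows listed at day 0, and 1.97 for those of the other rows that met the other conditions. Local background around the 2741 windows was itself 1.35 times that of the tiles at day 0 and 1.46 times at day 6.

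Many of these windows overlapped the listed ones in day 0 reads. The 25% point of the listed windows of the same rows was 16 day 0 reads, and 571 of the 2741 windows (20.8%) held at least as many. At the listed windows' median of 20 reads, 161 windows (5.87%) did. The sources used here give no threshold for a listing.

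The rule set no place for the day 0 reads inside the windows, and they were gathered at the centre. It did leave out the windows of the day 0 list, which was made for these same reads. Their place is therefore not independent of the choice of windows. Of the 32606 day 0 reads in the windows, 72.7% fell within 500 bp of the centre (72.2 to 73.2), where an even spread gives 50%. In the background tiles with at least 4 day 0 reads the share was 50.2%. The centres of the tiles come from a fixed grid and not from reads, so about 50% was fixed in advance for them. In 2461 of the 2741 windows more than 50% of the day 0 reads were central, in 165 less than 50%, and in 115 exactly 50%. In 1 window no day 0 read was central.

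The gathering was present in windows with few day 0 reads too. The 481 windows with 4 to 7 day 0 reads had 75.1% of them in the centre (73.5 to 76.7). The 374957 background tiles with the same number of reads had 50.1% (49.98 to 50.1), about the value that their grid fixes. The 70 windows at the rule's minimum of 4 had 72.1% (66.5 to 77.3). The 42 windows with 3 day 0 reads, just below the minimum, had 72.2%. These 2 neighbouring classes had a median of 13 and 12 day 6 reads.

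The day 0 reads also had the strand order of fragments around a bound site, plus-strand starts on the left of the centre and minus-strand starts on the right. Of 12378 day 0 starts within 200 bp of the centres, 60.3% faced the centre in this way (59.4 to 61.1). Background tiles with at least 4 day 0 reads gave 50.05% (49.9 to 50.2), about the value that their grid fixes in advance. Plus-strand starts left of the centre were 5.82 times as dense as starts of that strand between 1000 and 2000 bp from the centre, and minus-strand starts on the right 6.01 times. On the opposite sides the values were 3.74 and 4.06.

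The number of day 0 reads and their order moved in opposite directions. The windows were chosen for being absent from the day 0 list, which was made for these same reads, so this is a description. The share of starts facing the centre was 67.7% (65.1 to 70.3) in the windows with 4 to 7 day 0 reads, 64.0% in those with 8 to 11, 59.7% with 12 to 15, 55.6% with 16 to 19 and 50.1% (47.0 to 53.2) with 20 or more. In the windows of the same rows that were listed at day 0, it was 68.3% with 8 to 11 reads and 66.2% with 12 to 15. It was 62.2% there with 16 to 19 reads and 63.3% (62.5 to 64.1) with 20 or more. The 161 windows with 20 or more day 0 reads had a share whose interval held 50%, and 63.3% of their reads (61.7 to 64.9) were central. In the unlisted windows of the other rows the share fell as well up to 19 day 0 reads. It was 69.3% with 4 to 7 reads, 64.7% with 8 to 11, 60.1% with 12 to 15 and 57.5% (55.7 to 59.3) with 16 to 19. The fall over these classes was thus not particular to the windows described here. With 20 or more reads, 331 unlisted windows of the other rows had 64.7% (63.2 to 66.3). This class has no upper limit, and the groups were not matched in reads within it. The 331 windows held 12539 day 0 reads in all, and the 161 windows held 3703.

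In the classes from 8 to 19 day 0 reads, the listed windows were tighter than the unlisted ones of the same class. The day 0 list was made for this same library, so the groups were split by the reads compared here and the difference is a description. With 8 to 11 day 0 reads, 89.7% (87.3 to 91.7) were central in the 76 listed windows and 76.1% (75.2 to 77.0) in the 924 unlisted ones. With 12 to 15 the values were 85.2% and 73.3%. With 4 to 7 they were 75.9% (62.4 to 86.5) in 9 listed windows and 75.1% in the 481, and no difference was detectable. Unlisted windows of the other rows were less tight than those described here, with 67.8% (67.3 to 68.3) at 8 to 11 reads. The intervals at 8 to 11 reads did not overlap, and they cover counting error only.

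**Figure D2:**
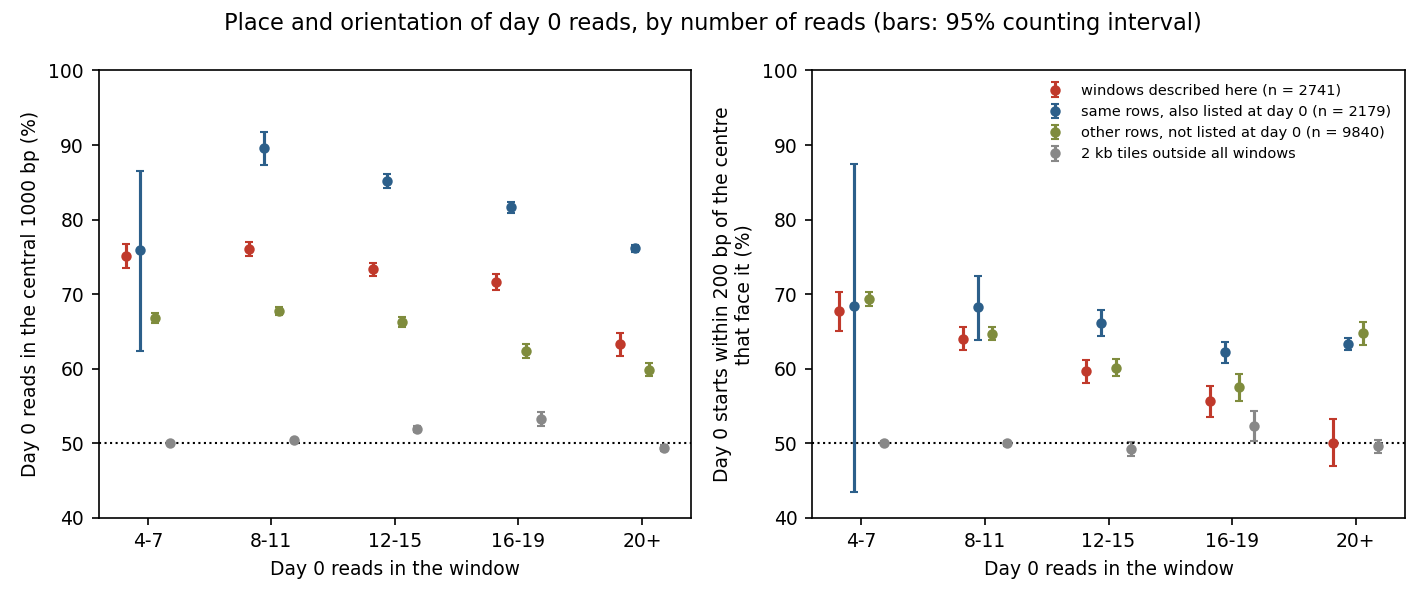
Share of day 0 reads in the central 1000 bp (left, percent) and share of day 0 starts within 200 bp of the centre that face it (right, percent), by number of day 0 reads in the window; bars are exact 95% counting intervals and the dotted line marks 50%. The 2741 windows fall from 75.1% to 63.3% on the left and from 67.7% to 50.1% on the right. The tiles, whose centres come from a fixed grid, stay near 50% in the classes of up to 11 reads.

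The central signal of the 2 libraries differed in form, around centres taken from the day 6 list. That list was made for the day 6 library, so the centring favours day 6 reads over day 0 reads. The forms are therefore a description, and no change between the days is read from them. Day 0 reads rose smoothly to the centre and were 450 bp wide at 50% of their height. Day 6 reads stood in a column of 200 bp, with an abrupt step 100 bp on either side of the centre, over broad shoulders that reached about 600 bp. Within 100 bp of the centre lay 43.0% of the day 6 reads of the windows and 22.9% of the day 0 reads. The listed windows of the same rows had the same column in the day 6 reads, with 37.9%, and a width of 350 bp at day 0. The central 200 bp held at least as many day 6 reads as any other 200 bp stretch of the window (in steps of 20 bp) in 2058 of the 2741 windows (75.1%), and at least as many day 0 reads in 545 (19.9%). These counts include ties: the centre held more reads than every other stretch in 601 windows at day 6 (21.9%) and in 32 at day 0 (1.17%). The day 0 reads of the 2741 windows showed no such column.

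**Figure D3:**
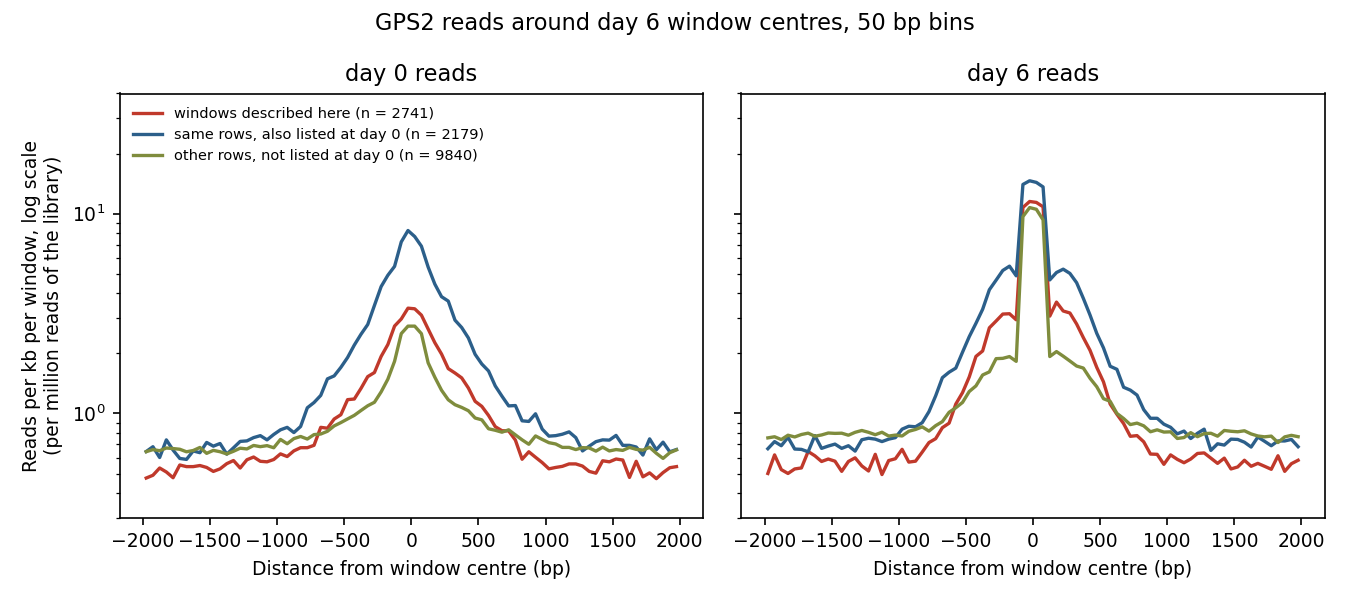
Reads per kb and window, scaled to the size of the library as RPM (vertical, log scale), by distance from the window centre (horizontal, 50 bp bins), at day 0 (left) and day 6 (right) for the 2741 windows, the listed windows of the same rows and the unlisted windows of other rows. In the day 6 reads, whose list gave the centres, every group has a step at 100 bp from the centre. For the 2741 windows the mean is 11.1 within 100 bp and 3.19 between 100 and 200 bp, and their day 0 reads show no such step. The day 0 reads of the other groups have a smaller one: from the bin at -125 bp to that at -75 bp they go from 1.82 to 2.51 in the unlisted windows of other rows and from 5.45 to 7.23 in the listed windows.

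Day 6 reads against day 0 reads, both scaled to the size of their library (RPM), gave a ratio of 1.85 over the 2741 windows (1.83 to 1.88). The choice of windows favours a high ratio, since it asks for a day 6 listing and no day 0 listing. By distance from the centre, the ratio was 3.48 (3.39 to 3.57) within 100 bp, 1.30 (1.25 to 1.34) from 100 to 200 bp, 1.70 (1.66 to 1.76) from 200 to 400 bp and 1.38 (1.33 to 1.43) from 400 to 600 bp. It was 1.03 (0.995 to 1.07) from 600 to 1000 bp and 1.05 (1.03 to 1.08) from 1000 to 2000 bp. Within about 600 bp on each side the ratio was thus higher than further out, and it was largest in the column. The centres come from the day 6 list, which favours day 6 reads there, so no change between the days is read from the column. The windows of the same rows listed at day 0 had 1.88 within 100 bp and 0.994 from 100 to 200 bp.

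Without the central 200 bp the ratio of the windows was 1.37 (1.35 to 1.39). The same measure gave 1.18 (1.17 to 1.20) in the windows of the same rows listed at day 0, 1.29 (1.28 to 1.30) in the unlisted windows of the other rows and 1.27 over all day 6 windows. Over the full 2000 bp these 3 groups had 1.38, 1.87 and 1.65. The 2741 windows and the unlisted windows of the other rows had nearly the same ratio over the full width, 1.85 and 1.87. In the shoulders the former had 1.37 against 1.29, with intervals that did not overlap. All these ratios include background reads. The local background at day 0 was 4.02 reads per 2 kb for the former and 4.97 for the latter. With the local background subtracted, the full-width ratios were 2.27 and 2.68. The shoulder ratios were not corrected for it, so no difference in GPS2 signal is read from them. The shoulders are less bound to the choice of windows than the centre but not free of it. This split of the window was chosen after the data were seen.

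A window was called higher where its ratio was 2 or more, with 10 or more reads in the larger library, and lower at 0.5 or less. By this rule 1150 of the 2741 windows (42.0%) were higher and 0 were lower, beside 35.4% and 0.136% of all day 6 windows. No test between the days was possible with 1 library each, so there is no count at an unadjusted p. The rule of choice used this contrast, and nothing is read from the share. Without the central 200 bp, 428 windows were higher (15.6%, beside 10.7% of all day 6 windows) and 67 were lower (2.44%, beside 2.54%). After scaling the libraries to a median ratio of 1 at the day 6 windows that were also listed at day 0, which moves every log2 ratio by -0.43, 442 were higher (16.1%, beside 17.1% of all day 6 windows) and 5 lower (0.182%, beside 0.793%), and the summed ratio was 1.37. With at least 20 reads required for a call, 582 were higher (21.2%, beside 11.9%), and at a ratio of 1.5 there were 1936 (70.6%, beside 56.9%). In simulated data for all 19794 day 6 windows, the changed windows were drawn from those with at least 20 reads in both libraries together. Of these, 49 of 50 with a true 4-fold rise were called and 32 of 50 with a 2-fold rise. Of the unchanged windows, 7.9% were called higher or lower, so calls of single windows are uncertain. Changed windows with fewer reads were not simulated.

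Single windows rarely departed from their common ratio. In 2638 of the 2741 windows (96.2%) the ratio was above 1, and its median was 1.86. The 95% interval of a window's own ratio held the common 1.85 in 2684 cases (97.9%), lay above it in 36 and below it in 21. It lay above 1 in 838 windows (30.6%). At the depth of a median of 11 and 17 reads, differences between most of these windows were not detectable.

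**Figure D4:**
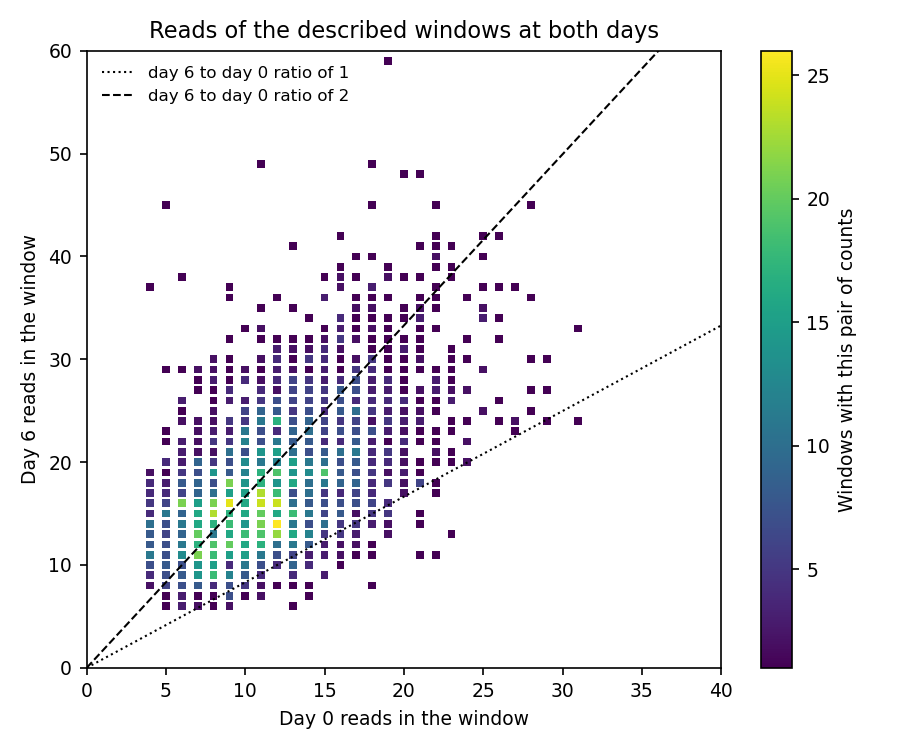
Day 6 reads (vertical) against day 0 reads (horizontal) of the 2741 windows, coloured by the number of windows at each pair of counts; the lines mark a day 6 to day 0 ratio of 1 (dotted) and 2 (dashed) in RPM. Most windows lie above the dotted line and no window lies left of 4 day 0 reads; 1 window, with 109 and 148 reads, lies outside the axes.

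The shoulders leaned to the same side at both days. The reads from 200 to 1000 bp left of the centre were compared with those on the right. Of the 428 windows where the sides differed by at least 4 reads at both days, 389 (90.9%) had the same heavier side at day 0 and day 6. For the 2120 windows with any difference at both days it was 1505 (71.0%). The listed windows of the same rows gave 91.2% and 74.1%, and the unlisted windows of other rows 93.8% and 67.4%. The libraries share the sequence and its mappability at each window, so this is a description of place and not of replicated binding.

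Across the 2741 windows, day 0 and day 6 reads in the central 1000 bp had a Spearman correlation of 0.465. Both counts share the window, and the minimum at day 0 and the listing at day 6 cut both ranges.

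Most of these windows stood apart from other GPS2 windows. The nearest day 0 window lay a median of 57434 bp from the window's edge, and the nearest other day 6 window 22721 bp. A day 0 window lay within 5 kb of 165 windows (6.02%). Those 165 had a ratio of 1.91 (1.80 to 2.02) and 70.2% of their day 0 reads in the centre. The 930 windows with no day 0 window within 100000 bp had 1.86 (1.82 to 1.91) and 72.8%. In the 27 windows with a day 0 window within 1000 bp, 65.7% (60.1 to 71.0) of the day 0 reads were central, with an interval below that of the 930 windows. Their ratio was 1.88 (1.62 to 2.17). The part of reads from neighbouring day 0 windows in these values was not tested.

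The windows were scattered over 1557 segments of 500 kb, 873 of which held 1 window each. The richest segment, on chromosome 11 from 99000001 to 99500000, held 10 of them among 11 day 6 windows of the same rows. They had 73 day 0 and 103 day 6 reads in all, a ratio of 1.70 (1.24 to 2.32). On chromosome 10, from 79000001 to 79500000, lay 8 windows with 93 and 164 reads, a ratio of 2.12 (1.63 to 2.76), and 6 of them were called higher. On chromosome 7, from 141000001 to 141500000, lay 8 windows with 115 and 167 reads, a ratio of 1.75 (1.37 to 2.23). These segments were picked after their values were seen, and each interval held the common ratio of 1.85.

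All 20 chromosomes searched (the autosomes and X) carried such windows, from 44 on chromosome X to 259 on chromosome 11. Per Mb, chromosome 11 was densest with 2.13 and chromosome X sparsest with 0.266. The share of windows in the middle rows that belonged to this group differed widely. It was 36.4% on chromosome 8 (31.2 to 41.9) and 41.2% on chromosome 15 (35.1 to 47.4), against 69.1% on chromosome 7 (63.3 to 74.4) and 72.1% on chromosome X (59.2 to 82.9). Median day 0 and day 6 reads of these windows were 12 and 18 on chromosome 8 and 13 and 19 on chromosome 15. They were 11 and 16 on chromosome 7 and 8.5 and 13 on chromosome X. The part of read depth in the differing share was not tested. The ratio of day 6 to day 0 varied less, from 1.73 (1.63 to 1.84) on chromosome 17 to 1.94 (1.78 to 2.12) on chromosome 18, and its interval held the common ratio on 19 of 20 chromosomes. The exception was chromosome 17.

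The window with the most reads at both days lay in a stretch of chromosome 10 with dense background throughout. This window, chr10:116780121-116782120, held 109 day 0 and 148 day 6 reads. It stood only 1.74 and 2.89 times above its flanks, and 35.8% of its day 0 reads were central. It was the only one of the 2741 windows in that stretch.

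The other windows with the most day 6 reads were sharper. At chr8:36962757-36964756 there were 19 day 0 and 59 day 6 reads, a ratio of 3.73 (2.19 to 6.63). Its density over the flanks went from 2.52 to 21.4 times, and a day 0 window lay 1149 bp from its edge. At chr1:99491106-99493105, with no day 0 window within 431625 bp, there were 11 and 49 reads, a ratio of 5.35 (2.75 to 11.4). Its density over the flanks went from 3.24 to 24.5 times, and 9 of the 11 day 0 reads were central. At chr5:137730991-137732990 there were 18 and 45 reads, and the density over the flanks went from 5.63 to 32.1 times, the highest of the 10 at day 6. The window at chr13:64161245-64163244, with 18 and 49 reads, differed in place: 7 of its 18 day 0 reads were central, against 38 of its 49 day 6 reads. The 10 windows of this kind held 5 to 109 day 0 reads and 45 to 148 day 6 reads.

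Among the 10 windows with the most day 0 reads, the interval of the ratio held 1 in 8. The exceptions were the chromosome 10 window, at 1.63 (1.27 to 2.11), and chr3:88227676-88229675, with 28 day 0 and 45 day 6 reads, at 1.93 (1.18 to 3.21). Behind the chromosome 10 window came chr17:72822336-72824335, with 31 day 0 and 24 day 6 reads, a ratio of 0.930 (0.522 to 1.64). Its density over the flanks was 7.38 times at day 0 and 5.45 times at day 6, and 14 of its 31 day 0 reads were central. At chr19:6060605-6062604 there were 31 and 33 reads, a ratio of 1.28 (0.759 to 2.16). At chr11:113499159-113501158 there were 29 and 30 reads, a ratio of 1.24 (0.721 to 2.15), at 7.63 and 11.5 times the flanks. At chr2:131252678-131254677 there were 29 and 27 reads, a ratio of 1.12 (0.637 to 1.96). All 10 stood 1.74 to 7.63 times above their flanks at day 0 and had 35.8% to 64.3% of their day 0 reads in the centre, all below the 72.7% over all 2741 windows. Their ratios lay between 0.930 and 1.93, and being picked for many day 0 reads lowers them.

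Of the 2741 windows, 1008 held at least 20 reads in one library, and the extremes of the ratio among them were as follows. The largest was at chr11:105852124-105854123, with 4 day 0 and 37 day 6 reads, a ratio of 11.1 (3.99 to 42.9). It lay at 0.870 times its flanks at day 0, so its 4 reads were no excess, although all 4 were central. At chr4:35070852-35072851 there were 5 and 45 reads, a ratio of 10.8 (4.31 to 34.9), from 1.25 to 18 times the flanks, and 44 of the 45 day 6 reads were central. A day 0 window lay 1810 bp from its edge. At chr18:80367950-80369949 there were 6 and 38 reads, a ratio of 7.61 (3.19 to 22.0), and all 6 day 0 reads were central. At chr1:4796999-4798998 there were 5 and 29 reads, a ratio of 6.97 (2.67 to 23.1), and all 29 day 6 reads were central. The 10 largest ratios, from 5.21 to 11.1, came with a median of 1.28 times the flanks at day 0. Being picked for a large ratio favours few day 0 reads, so this low value is a description. The share of their day 0 reads in the centre had a median of 91.7% and a range of 33.3% to 100%.

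The smallest ratio was at chr3:116414651-116416650, with 22 day 0 and 11 day 6 reads, a ratio of 0.601 (0.263 to 1.29). Its density over the flanks fell from 7.86 to 2.29 times. At chr19:55368859-55370858 there were 21 and 11 reads, a ratio of 0.629 (0.274 to 1.37), yet the density over the flanks was 5.25 times at day 0 and 6.88 times at day 6. At chr18:39118167-39120166 there were 23 and 13 reads, a ratio of 0.679 (0.316 to 1.40). The intervals of all 10 smallest ratios, from 0.601 to 1.001, held 1. Windows at this end were listed at day 6 and not at day 0 while holding as many or more day 0 reads, and they stood 3.01 to 9.17 times above their flanks at day 0.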

How the data were processed

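Per the submitters' processing notes, the sources name Bowtie, HOMER and the build mm8; versions, settings, roles and peak thresholds are not stated there. The authors deposited aligned reads (36-base intervals, at most 1 per start and strand) and, for each library separately, a list of window positions without heights or p-values. Read starts were moved 95 bp (day 0) or 85 bp (day 6) towards the fragment centre and counted in each window (Python 3.11.15, numpy 2.4.6, scipy 1.17.1, pandas 2.3.3). Positions are counted from 1, in mm8. Ratios carry exact conditional binomial and shares exact Clopper-Pearson 95% intervals. PCR copies were not separable, so intervals cover counting error only. Folds over the flank needed at least 2 kb of free flank, which all 2741 windows had. Background tiles kept 1 kb from every window. Named regions were, by rule, the 10 windows with the most day 6 reads, the 10 with the most day 0 reads, and, where a library held at least 20 reads, the 10 largest and smallest ratios. The call rule was tested on simulated data. The windows, rules and lists were chosen with earlier results of these data known. No annotation of mm8 was used here, so genes and sequences are not reported. No replicates exist per the labels.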

Additional observations from a re-analysis of the deposited data

How the results depend on the processing

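Of 51 values under 15 alternatives, 31 stayed within the interval of the reported value (counts within 1.5 times), 20 moved and 0 reversed direction. No reversal was defined for the count of higher windows, which could only stay or move. The 2 alternatives without the central 200 bp and with scaling by windows in both lists were added after seeing the data. The cause of a shift was not tested unless the alternative's construction gives it. The summed ratio of 1.85 became 1.81 with at least 6 day 0 reads, 1.97 scaled by bins outside the windows, 1.37 scaled by the median ratio of windows in both lists, 2.14 in the central 1000 bp and 1.37 without the central 200 bp. The fold over the flank at day 0, 2.96, became 3.05 with at least 6 day 0 reads, 2.90 with no minimum, 4.30 in the central 1000 bp, 3.003 with a flank of 10 kb and 2.53 without the central 200 bp. At day 6 the fold of 5.34 became 5.41 with no day 0 window within 5 kb, 8.97 in the central 1000 bp and 3.38 without the central 200 bp. The 1150 higher windows became 683 in the 3000 rows that follow row 7500 (of 1659 windows, 41.2%), 442 scaled by windows in both lists, 582 with at least 20 reads, 1936 at a ratio of 1.5 and 428 without the central 200 bp. Under these last 4 rules 17.1%, 11.9%, 56.9% and 10.7% of all day 6 windows were called higher. The central share of 72.7% was 73.9% in the 3000 rows that follow row 7500, and 40.5% lay in the central 400 bp, where an even spread gives 20%. No paired analysis was possible because each day has 1 library. Depth limits single windows: a count of 0 allows up to 3 reads, 7.05e-05% of the day 0 and 8.47e-05% of the day 6 reads.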
